A study of Homo sapiens with 24 samples.

Results

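The red cell regulator GATA1 was lowered in K562 cells, a human erythroleukaemia line, either through a putative enhancer or through its own start site, and the RNA of these cells was compared. The cells made a nuclease-dead Cas9 joined to the KRAB repressor domain from a promoter that doxycycline switches on. A single guide RNA (sgRNA) took this protein to its site, a method called CRISPR interference (CRISPRi), and doxycycline was given for 24 hours. The 6 libraries of interest carried eHDAC6-Guide1 or eHDAC6-Guide2, both aimed at eHDAC6, a putative enhancer of GATA1, with 3 biological replicates each. The 3 libraries set against them carried GATA1TSS-Guide1, 1 of the 2 sgRNAs aimed at the GATA1 transcription start site. They were chosen by these labels and make up 9 of the 24 libraries of the series. The other 15 libraries, 3 with GATA1TSS-Guide2 and 12 with 4 non-targeting sgRNAs (NC), are given as levels only. All cultures, NC included, carried the repressor and received doxycycline. Polyadenylated RNA came from 10000 lysed cells per library, and the protocol was strand-specific and paired-end. The start-site side rests on 1 sgRNA, so what belongs to the start site and what belongs to that sgRNA cannot be told apart. GATA1 was also lower with that sgRNA than with the eHDAC6 sgRNAs. Effects of the targeted site and of the GATA1 level therefore cannot be told apart either.

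GATA1 is a zinc-finger transcription factor that binds GATA motifs and drives the genes of red cells and megakaryocytes, among them the globins and the enzymes of heme synthesis, while it holds down genes of other blood lineages. KRAB recruits corepressors that lay down repressive histone marks around the site where it is bound. A guide at a start site can therefore silence the gene that starts there, and a guide at an enhancer can lower a gene at a distance. HDAC6, a neighbour of GATA1 on the X chromosome, encodes a cytoplasmic deacetylase of tubulin. The comparison asks how cells in which GATA1 was lowered through an enhancer differed from cells in which it was lowered through its own start site.

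The sequences below are the promoters of the genes on which the comparison turns, GATA1 and HDAC6 at the targeted locus and ZBTB1 on chromosome 14. Each runs from 250 bases before to 50 bases after a RefSeq start, 5′ to 3′ on the plus strand of GRCh38.p14, at chrX:48786340-48786639, chrX:48801817-48802116 and chr14:64503637-64503936. Capitals mark CACCC, the motif of KLF factors, read on either strand (GGGTG). The GATA motif GATAA, or TTATC on the other strand, was also searched and is in none of the 3 windows.
GATA1 promoter: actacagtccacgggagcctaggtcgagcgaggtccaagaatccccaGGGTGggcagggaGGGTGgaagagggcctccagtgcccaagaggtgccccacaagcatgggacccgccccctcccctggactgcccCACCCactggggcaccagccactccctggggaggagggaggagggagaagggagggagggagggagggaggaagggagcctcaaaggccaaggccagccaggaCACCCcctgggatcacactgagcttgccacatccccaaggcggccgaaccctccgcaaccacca
HDAC6 promoter: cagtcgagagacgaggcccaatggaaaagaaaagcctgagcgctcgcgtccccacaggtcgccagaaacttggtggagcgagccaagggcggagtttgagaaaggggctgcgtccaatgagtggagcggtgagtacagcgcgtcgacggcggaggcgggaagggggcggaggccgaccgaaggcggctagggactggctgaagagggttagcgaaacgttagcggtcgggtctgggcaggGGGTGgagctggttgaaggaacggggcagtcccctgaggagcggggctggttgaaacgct
ZBTB1 promoter: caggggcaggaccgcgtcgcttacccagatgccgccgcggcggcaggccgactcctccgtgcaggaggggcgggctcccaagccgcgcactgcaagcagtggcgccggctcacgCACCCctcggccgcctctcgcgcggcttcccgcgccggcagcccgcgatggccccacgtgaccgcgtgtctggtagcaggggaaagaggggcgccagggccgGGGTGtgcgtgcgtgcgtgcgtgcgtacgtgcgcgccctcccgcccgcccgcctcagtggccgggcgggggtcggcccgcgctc
The GATA1 window holds 4 CACCC matches, that of ZBTB1 2 and that of HDAC6 1. Of all 35116 RefSeq windows of this length, 59.9% hold CACCC and 22.7% hold GATAA. HDAC6 and ZBTB1 have further RefSeq starts that are not printed. No source used here gives the guide positions, so no guide site is marked.

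Total counts ran from 11426981 to 15525058 in the eHDAC6 libraries and from 19204390 to 20837877 in the GATA1TSS-Guide1 libraries. Depth thus moved with the groups, and counts thinned to 1 depth, a setting chosen after the data had been seen, gave 87 called genes in place of 97. Levels are in CPM, the usual count of a gene scaled to a common library total after TMM correction, and are not corrected for gene length. The erythroid markers of K562 cells were present throughout, with HBE1 at 1728 to 2590 CPM in eHDAC6 libraries and 2173 to 2902 CPM in GATA1TSS-Guide1 libraries. On principal component 1 of the 9 libraries, which held 27.9% of the variance, the eHDAC6 libraries lay between -7.01 and 3.23 and the GATA1TSS-Guide1 libraries between 1.03 and 9.98. The groups overlapped there. Replicates of an sgRNA differed by 3.67 to 13.2 times sampling noise (chi-square per degree of freedom), the most between replicates 1 and 2 of GATA1TSS-Guide1, so no library was a copy of another. In bulk RNA, fewer cells of a type and less RNA per cell cannot be told apart.

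Of 21925 gene entries, 12595 were tested. Of these, 55 (0.437%) rose and 42 (0.333%) fell with the eHDAC6 sgRNAs relative to GATA1TSS-Guide1, 97 (0.77%) in all (edgeR's quasi-likelihood test at a Benjamini-Hochberg adjusted p under 0.05). Most changes were small. The median log2 difference of the rises was 0.45, with a range of 0.26 to 1.54, and that of the falls was -0.43, with a range of -1.80 to -0.25. The change was beyond 2-fold for 6 of the rises and 4 of the falls. For 43 of the 55 rises all 6 eHDAC6 libraries lay above the 3 GATA1TSS-Guide1 libraries, where 2.39% of all genes tested did. For 28 of the 42 falls all 6 lay below, where 2.51% of all genes tested did. The calls came from these same libraries, so such counts describe them and are no separate support.

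The number of calls depended on single libraries and on how the spread was estimated. It was 14 without GATA1TSS-Guide1 replicate 3, 208 without its replicate 1 and 149 without its replicate 2. It was 60 and 36 without eHDAC6-Guide1 replicates 1 and 3, and 44, 155 and 53 without eHDAC6-Guide2 replicates 1, 2 and 3. Of the 97 genes, 13 kept their call without GATA1TSS-Guide1 replicate 3. In a fit of all 24 libraries, in which the more scattered NC libraries share the estimate of spread, 4 genes were called, the same 4 that were called in all 20 alternatives. These were GATA1, HDAC6, ZBTB1 and LOC102723809. Every other gene named below as changed between eHDAC6 and GATA1TSS-Guide1 rests on the fit of the 9 libraries. Without the sgRNA eHDAC6-Guide1, which leaves 6 libraries, 13 of the 97 calls were kept and 31 of the 41 named genes lost theirs. Without eHDAC6-Guide2, which also leaves 6 libraries, 61 of the 97 were kept and 13 of the 41 named genes lost theirs.

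GATA1 was higher, and HDAC6 lower, with the enhancer sgRNAs than with the start-site sgRNA. GATA1 (chromosome X, 48644982 to 48652717, plus strand, hg19) stood at 252, 243 and 247 CPM in the eHDAC6-Guide1 libraries, at 256, 258 and 268 CPM in the eHDAC6-Guide2 libraries and at 131, 96.7 and 123 CPM in the GATA1TSS-Guide1 libraries. The groups did not overlap, and the eHDAC6 libraries lay close together. Their mean was 254 ± 8.96 CPM (SD, n = 6), against 117 ± 18.0 CPM for GATA1TSS-Guide1 (n = 3), so that the log2 difference was 1.12 (SE 0.07, edgeR adjusted p = 2.52e-09) or 2.17-fold. The difference lay between 1.0 and 1.21 over the 20 alternatives. Both groups were below the NC libraries, which ranged from 284 to 398 CPM with a median of 371, and above GATA1TSS-Guide2 with 60.3, 42.6 and 57.3 CPM. The eHDAC6 sgRNAs did not differ detectably from each other (eHDAC6-Guide1 minus eHDAC6-Guide2 -0.08, SE 0.08, edgeR adjusted p = 0.936).

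HDAC6 (chromosome X, 48660487 to 48683380, plus strand) starts 15.5 kb from GATA1. It stood at 143, 139 and 149 CPM with eHDAC6-Guide1 and at 141, 123 and 135 CPM with eHDAC6-Guide2, against 231, 241 and 212 CPM with GATA1TSS-Guide1. Again the groups did not overlap. The means were 138 ± 8.91 CPM (SD, n = 6) and 228 ± 14.9 CPM (n = 3), with a log2 difference of -0.72 and an SE of 0.06 (edgeR adjusted p = 6.59e-08), and between -0.78 and -0.67 over the alternatives. The NC libraries lay from 130 to 206 CPM with a median of 175. All 3 GATA1TSS-Guide1 libraries were above that range, 5 of the 6 eHDAC6 libraries were in its lower part, and 1, at 123 CPM, was below it. GATA1TSS-Guide2 was higher still, at 293, 255 and 301 CPM. Relative to the NC median, HDAC6 was thus lower in the eHDAC6 libraries and higher in the GATA1TSS-Guide1 libraries.

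**Figure D1:**
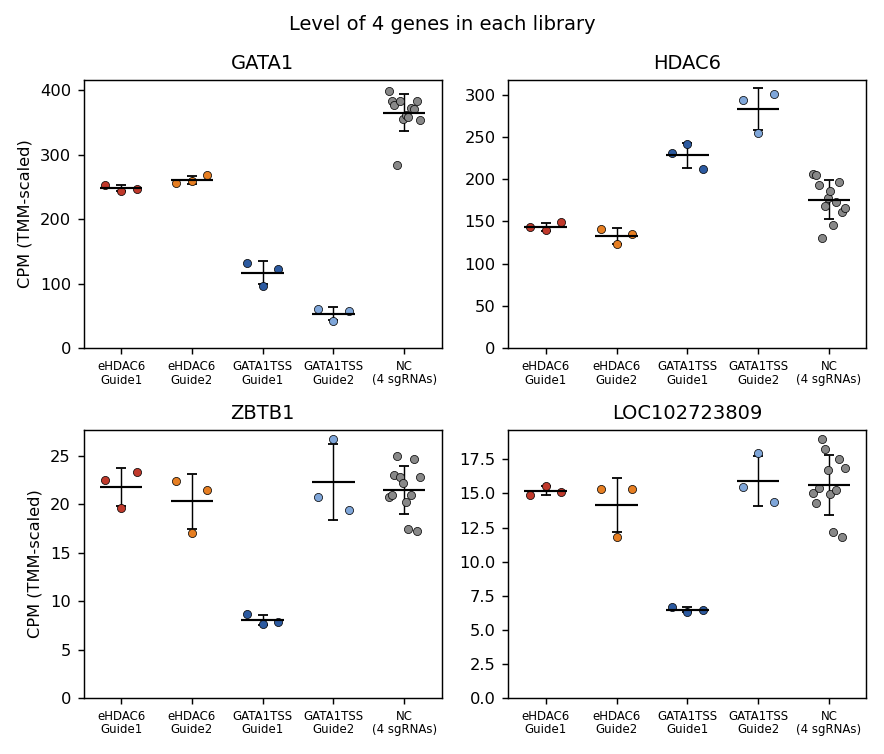
The points are CPM (TMM-scaled) of GATA1, HDAC6, ZBTB1 and LOC102723809 in each of the 24 libraries by sgRNA, with the mean as a bar and the SD as whiskers. The GATA1TSS-Guide1 libraries are at 131, 96.7 and 123 CPM for GATA1, below all 6 eHDAC6 libraries, and for ZBTB1 at 8.66, 7.59 and 7.87 CPM they are the lowest of all.

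Few other genes of the locus were called. Within 100 kb of the GATA1 start 4 of 6 genes in the table were tested, and GATA1 and HDAC6 were the ones called. GLOD5, the tested gene next to GATA1 on its other side, was low in every library. It stood at 0.892, 1.51 and 0.76 CPM with eHDAC6-Guide1 and 0.303, 0.865 and 0.759 CPM with eHDAC6-Guide2, against 1.62, 2.38 and 1.66 CPM with GATA1TSS-Guide1. All 6 eHDAC6 libraries were below the 3 others, but the difference of -1.21 (SE 0.32) did not pass (edgeR adjusted p = 0.0718). The NC libraries had 0.843 to 3.32 CPM with a median of 2.28. At such low levels, missing the threshold does not show that GLOD5 was unchanged. SUV39H1, a histone H3 lysine methyltransferase gene, had 55.1 ± 4.82 CPM with eHDAC6 and 64.0 ± 4.54 CPM with GATA1TSS-Guide1, a difference of -0.22 that did not pass (edgeR adjusted p = 0.176). ERAS and PCSK1N were too low to be tested, ERAS at 0.127 to 0.380 CPM with eHDAC6 and 0.506 to 0.809 CPM with GATA1TSS-Guide1.

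Further out, from 100 kb to 1 Mb, 1 of 63 tested genes was called, where 0.77% of all genes tested were. This was SSX3, a cancer-testis antigen gene with close copies, so that reads may be shared among them. It had 23.6, 22.5 and 26.2 CPM with eHDAC6-Guide1 and 25.2, 25.5 and 25.2 CPM with eHDAC6-Guide2, against 19.1, 18.5 and 18.2 CPM with GATA1TSS-Guide1 (log2 difference 0.41, SE 0.09, edgeR adjusted p = 0.0224). SSX3 lost its call without eHDAC6-Guide1 replicate 3 (0.38, edgeR adjusted p = 0.0768) and without GATA1TSS-Guide1 replicate 3 (0.39, edgeR adjusted p = 0.164). The call was also lost without the sgRNA eHDAC6-Guide1 (edgeR adjusted p = 0.112) and without eHDAC6-Guide2 (edgeR adjusted p = 0.0888). The 22 GAGE copies in this region, also cancer-testis antigen genes, had differences of -0.10 to 0.07 and none was called. WAS, an actin regulator of blood cells, differed by 0.15 (edgeR adjusted p = 0.265), PQBP1 by -0.20 (edgeR adjusted p = 0.131) and the kinase gene PIM2 by -0.21 (edgeR adjusted p = 0.262), none of them past the threshold. The median over the 67 genes tested within 1 Mb was -0.03, against -0.00 over all genes. Both the 63 and the 67 include the 22 GAGE copies, several with identical values, so these genes are not all separate observations. On the rest of chromosome X, 2 of the 517 tested genes were called.

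**Figure D2:**
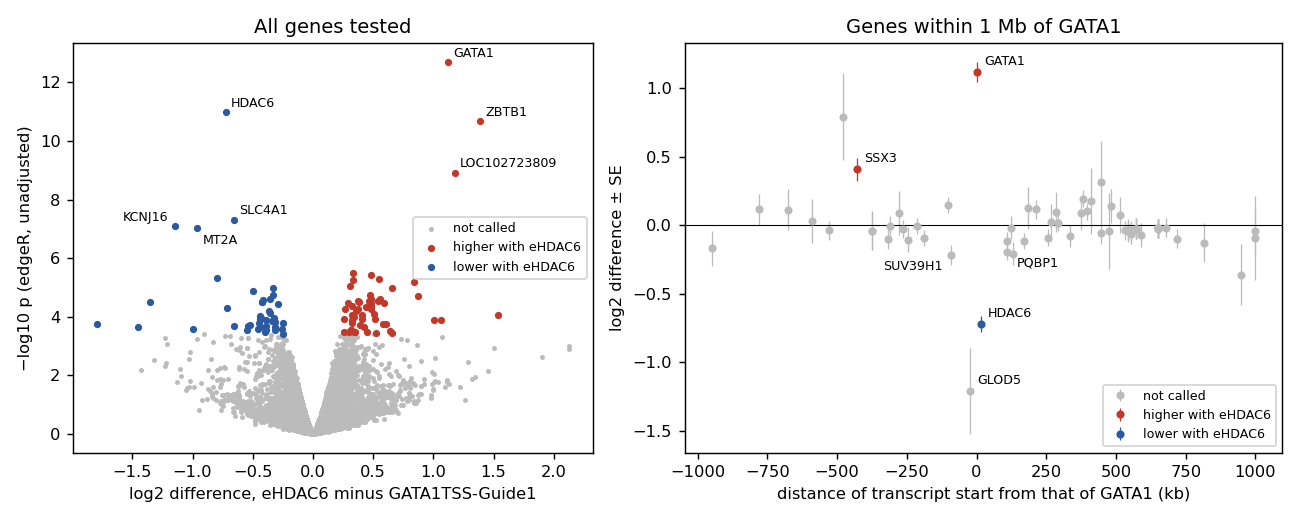
The left panel plots the log2 difference, eHDAC6 minus GATA1TSS-Guide1, of the 12595 genes tested against the unadjusted edgeR p on a −log10 scale, with the 55 rises in red and the 42 falls in blue. The right panel plots the difference with its SE against the distance in kb of each transcript start from that of GATA1, where GATA1 (1.12), HDAC6 (-0.72) and SSX3 (0.41) are the called genes.

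The next smallest p after those of GATA1 and HDAC6 belonged to a gene on another chromosome. ZBTB1, a zinc-finger transcriptional repressor needed for lymphocyte development, lies on chromosome 14 from 64971292 to 65000408 (plus strand, hg19). It had 22.5, 19.6 and 23.3 CPM with eHDAC6-Guide1 and 22.4, 17.0 and 21.5 CPM with eHDAC6-Guide2, against 8.66, 7.59 and 7.87 CPM with GATA1TSS-Guide1. The log2 difference was 1.39 (SE 0.11, edgeR adjusted p = 8.9e-08), or 2.62-fold, with a range of 1.34 to 1.45 over the alternatives. The GATA1TSS-Guide1 libraries were the ones that stood apart. The NC libraries had 17.2 to 25.0 CPM with a median of 21.6, and GATA1TSS-Guide2, aimed at the same start site, had 20.7, 26.7 and 19.4 CPM. The 3 GATA1TSS-Guide1 libraries were thus the lowest of all 24, which held for 9 of the genes tested (0.0715%).

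Among the 97 called genes, ZBTB1 and LOC102723809 were the ones with this pattern. LOC102723809 (chromosome 14, 64980869 to 65007086, minus strand) shares exon sequence with ZBTB1 on the opposite strand. No source used here says whether strand was used in counting, so their reads cannot be told apart. It had 14.9, 15.6 and 15.1 CPM with eHDAC6-Guide1, 15.3, 11.8 and 15.3 CPM with eHDAC6-Guide2 and 6.71, 6.28 and 6.48 CPM with GATA1TSS-Guide1 (log2 difference 1.18, SE 0.12, edgeR adjusted p = 3.86e-06). ZBTB25, which starts next to ZBTB1 on the other strand and also overlaps it, had 66.8 ± 2.96 CPM with eHDAC6 and 59.2 ± 4.42 CPM with GATA1TSS-Guide1, a difference of 0.18 that did not pass (edgeR adjusted p = 0.225). AKAP5 (-0.21) and HSPA2 (0.13), a heat shock protein gene, also lie within 100 kb and were not called.

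Several markers of white blood cells rose. From the list of myeloid markers, 4 of 11 tested genes rose and none fell, where 0.437% of all genes tested rose. The other 7 also had positive differences, as did 6239 of all 12595 genes tested. The list, chosen with earlier results of these data known, had a median of 0.31, against -0.00 over all genes. The 4 were CD33 and CD68, surface and lysosomal glycoproteins of myeloid cells, LST1, a leukocyte gene of the major histocompatibility region, and TYROBP, an adaptor of activating receptors. The list's summed level was 285 to 306 CPM in eHDAC6 libraries, 232 to 244 CPM in GATA1TSS-Guide1 libraries and 162 to 247 CPM in NC libraries. Markers of mature myeloid cells were uneven. LYZ was at 73.2 to 88.3 CPM with eHDAC6 and 68.1 to 70.9 CPM with GATA1TSS-Guide1. AZU1 was at 3.89 to 9.11 CPM with eHDAC6 and 3.19 to 5.47 CPM with GATA1TSS-Guide1. PRTN3 and ITGAM were also low but tested. Others were near 0 in both groups. MPO, the granule peroxidase, was at 0 to 0.152 CPM with eHDAC6 and 0 to 0.203 CPM with GATA1TSS-Guide1, and S100A8 at 0 to 0.173 CPM with eHDAC6 and 0 to 0.104 CPM with GATA1TSS-Guide1. None of the 5 tested lymphocyte markers and none of the 7 tested fibroblast and epithelial markers was called.

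TYROBP had 15.5, 19 and 21.9 CPM with eHDAC6-Guide1 and 18.5, 21.6 and 16.5 CPM with eHDAC6-Guide2, against 13.9, 9.67 and 14.0 CPM with GATA1TSS-Guide1 (log2 difference 0.58, SE 0.13, edgeR adjusted p = 0.0319). CD68 had 120, 115 and 117 CPM with eHDAC6-Guide1 and 118, 125 and 123 CPM with eHDAC6-Guide2, against 97.3, 98.1 and 95.1 CPM with GATA1TSS-Guide1 (0.31, SE 0.05, edgeR adjusted p = 0.00808). In both genes all 6 eHDAC6 libraries were above the 3 others. CD33 differed by 0.32 (edgeR adjusted p = 0.042). LST1 differed by 1.06 (edgeR adjusted p = 0.0269) at low levels of 3.95 to 6.48 CPM with eHDAC6 and 1.62 to 3.57 CPM with GATA1TSS-Guide1, and its exons overlap those of NCR3 on the other strand. Without GATA1TSS-Guide1 replicate 3 none of the 4 was called (edgeR adjusted p = 0.091 for TYROBP, 0.0811 for CD68, 0.262 for CD33 and 0.202 for LST1). None of them was called without the sgRNA eHDAC6-Guide1 either (edgeR adjusted p = 0.0629 to 0.37). Without the sgRNA eHDAC6-Guide2, CD68 and CD33 kept their calls and TYROBP and LST1 lost theirs (edgeR adjusted p = 0.0776 and 0.0937). TYROBP was also lost without GATA1TSS-Guide1 replicate 2, eHDAC6-Guide1 replicate 3 or eHDAC6-Guide2 replicate 1 (edgeR adjusted p = 0.101, 0.102 and 0.0728). LST1 was lost without GATA1TSS-Guide1 replicate 2, eHDAC6-Guide1 replicate 1 or eHDAC6-Guide2 replicate 1 or 3 (edgeR adjusted p = 0.0513 to 0.0788). CD33 was lost without GATA1TSS-Guide1 replicate 2, any replicate of eHDAC6-Guide1 or eHDAC6-Guide2 replicate 1 or 3 (edgeR adjusted p = 0.0517 to 0.126).

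Outside that list, CORO1A, PTPN6, AIF1, PLCB2, CD84 and TSPAN32 were among the largest rises named by rule, and were put side by side here after their values were seen. CORO1A, a coronin that organises leukocyte actin, had 39.7, 42.2 and 40.2 CPM with eHDAC6-Guide1 and 37.7, 46.3 and 45.1 CPM with eHDAC6-Guide2, against 31.1, 28.3 and 30.5 CPM with GATA1TSS-Guide1. Its difference of 0.48 (SE 0.08, edgeR adjusted p = 0.00518) was called in 19 of 20 alternatives, all but the fit of 24 libraries. PTPN6, the phosphatase SHP-1 that damps receptor signals in blood cells, averaged 15.1 ± 1.26 CPM with eHDAC6 and 9.52 ± 1.39 CPM with GATA1TSS-Guide1 (0.66, SE 0.12, edgeR adjusted p = 0.0082). AIF1, an actin-binding protein of macrophages also known as Iba1, averaged 29.6 ± 4.07 CPM with eHDAC6 and 20.3 ± 1.34 CPM with GATA1TSS-Guide1 (0.54, SE 0.10, edgeR adjusted p = 0.0125). PLCB2, a phospholipase C of blood cells, averaged 51.6 ± 6.67 CPM with eHDAC6 and 35.1 ± 4.90 CPM with GATA1TSS-Guide1 (0.55, SE 0.09, edgeR adjusted p = 0.00572). CD84, a receptor of the SLAM family, differed by 0.59 (edgeR adjusted p = 0.0125) and the tetraspanin gene TSPAN32 by 0.48 (edgeR adjusted p = 0.0162). PTPN6, AIF1, CD84 and TSPAN32 lost their calls without GATA1TSS-Guide1 replicate 3 (edgeR adjusted p = 0.0806, 0.062, 0.0674 and 0.185). CD84 also lost it without eHDAC6-Guide1 replicate 3 (edgeR adjusted p = 0.0528), and TSPAN32 without that library or eHDAC6-Guide2 replicate 1 or 3 (edgeR adjusted p = 0.0546 to 0.0655). Without the sgRNA eHDAC6-Guide1, CORO1A alone of these 6 stayed called. Without eHDAC6-Guide2, CD84 alone of these 6 lost its call (edgeR adjusted p = 0.0882).

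Also called, and picked out here after their values were seen, were LAPTM5, a lysosomal protein of blood cells (0.47), ALOX5, the 5-lipoxygenase of leukotriene synthesis (0.48), and the adaptor genes FYB (0.64) and STAP1 (1.01). The groups overlapped for ALOX5 and FYB. STAP1 was low, at 3.11 to 4.09 CPM with eHDAC6 and 1.33 to 2.08 CPM with GATA1TSS-Guide1. Of 20 alternatives, LAPTM5 was called in 13, ALOX5 in 15, FYB in 9 and STAP1 in 10. LAPTM5 ranged from 753 to 942 CPM in eHDAC6 libraries and from 493 to 732 CPM in GATA1TSS-Guide1 libraries. The NC libraries had 521 to 672 CPM in replicates 2 and 3 of NC-Guide3 and NC-Guide4, and 205 to 412 CPM in the others. NC ranges given here span both sets of NC libraries. Levels of these genes relative to NC were not alike. AIF1, CORO1A, LST1 and TYROBP were highest of all with GATA1TSS-Guide2 (AIF1 at 40.5, 49.2 and 39.0 CPM, CORO1A at 66.8, 69.7 and 75.5 CPM), while the NC ranges of AIF1 (12.3 to 22.9 CPM) and CORO1A (11.9 to 34.8 CPM) lay below all 6 eHDAC6 libraries. The NC libraries reached 17.4 CPM for TYROBP, above 2 of the eHDAC6 libraries. Over the 55 rises, the eHDAC6 mean was above the NC range for 29, within it for 25 and below it for 1. The GATA1TSS-Guide1 mean was above it for 3, within it for 43 and below it for 9. For the 42 falls, the eHDAC6 mean was below the NC range for 12 and within it for 29, and that of GATA1TSS-Guide1 was above it for 7 and within it for 34.

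**Figure D3:**
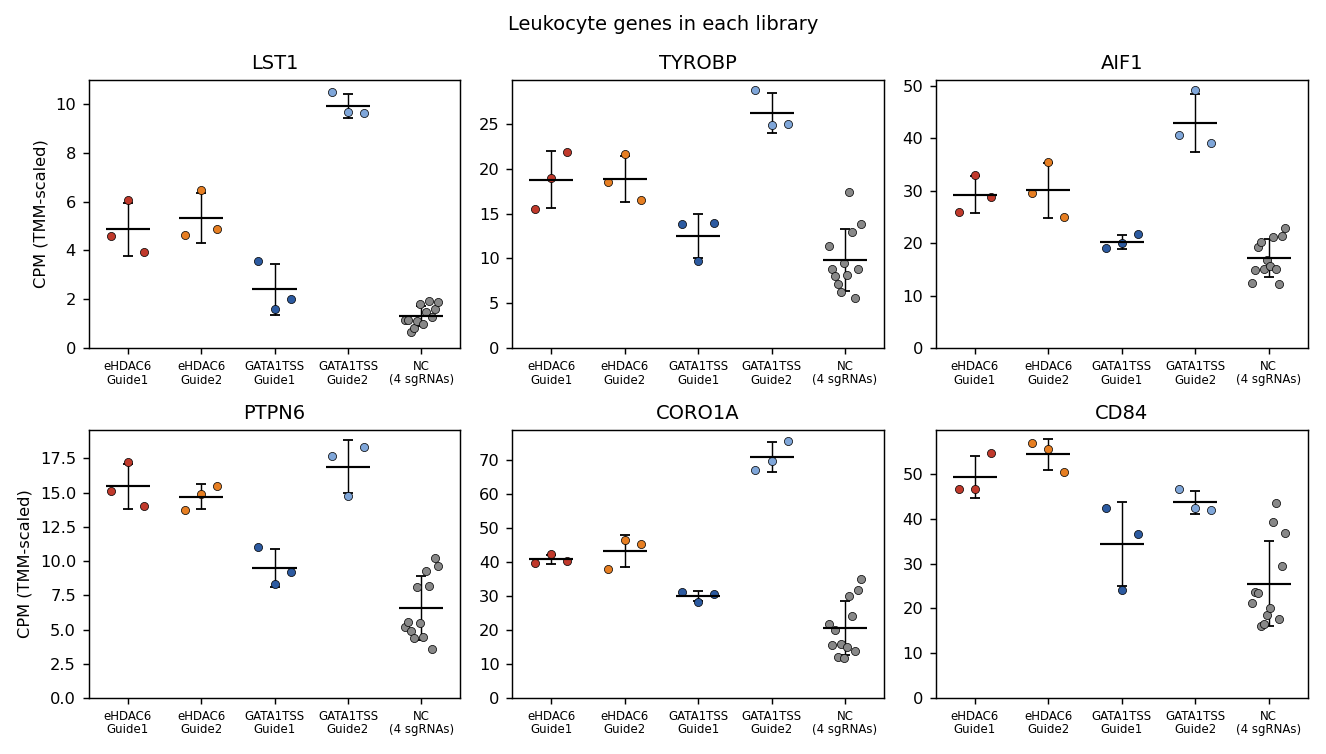
The points are CPM (TMM-scaled) of LST1, TYROBP, AIF1, PTPN6, CORO1A and CD84 in each library by sgRNA, with the mean as a bar and the SD as whiskers. In all 6 genes the eHDAC6 libraries lie above those of GATA1TSS-Guide1, and for AIF1 GATA1TSS-Guide2 is higher still at 40.5, 49.2 and 39.0 CPM.

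Single rises outside this group included MYB, the progenitor transcription factor. MYB was the 1 of 20 tested erythroid regulators that was called, where 0.77% of all genes tested were. It had 333, 338 and 335 CPM with eHDAC6-Guide1 and 349, 323 and 325 CPM with eHDAC6-Guide2, against 291, 258 and 282 CPM with GATA1TSS-Guide1 (0.27, SE 0.05, edgeR adjusted p = 0.0162). The groups did not overlap, but the call was lost without GATA1TSS-Guide1 replicate 2 or 3, eHDAC6-Guide1 replicate 3 or eHDAC6-Guide2 replicate 1 (edgeR adjusted p = 0.0653, 0.102, 0.0616 and 0.0516). BMX, a kinase of the Tec family, and P2RX5, an ATP-gated channel, had their highest levels of all 24 libraries with eHDAC6-Guide2, as 19 of the genes tested did (0.151%). BMX had 8.49, 9.86 and 8.58 CPM with that sgRNA, 5.35, 6.40 and 4.94 CPM with eHDAC6-Guide1 and 3.23, 4.71 and 3.57 CPM with GATA1TSS-Guide1 (mean of both eHDAC6 sgRNAs 0.88, edgeR adjusted p = 0.0119). P2RX5 differed by 0.84 (edgeR adjusted p = 0.00626) and shares exons with the readthrough gene P2RX5-TAX1BP3. Both lost their calls without GATA1TSS-Guide1 replicate 3 (edgeR adjusted p = 0.0936 for BMX and 0.0811 for P2RX5) and without the sgRNA eHDAC6-Guide2 (0.53 for BMX and 0.45 for P2RX5, edgeR adjusted p = 0.234 and 0.261). SLC25A29, a mitochondrial carrier of basic amino acids, LMNTD2 and LOC728613 also rose, by 0.51, 0.56 and 0.48, and each lost its call without GATA1TSS-Guide1 replicate 3 (edgeR adjusted p = 0.202, 0.151 and 0.123).

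After HDAC6 and SLC4A1, KCNJ16 and MT2A had the smallest adjusted p among the falls. KCNJ16, an inward rectifier potassium channel, had 8.35, 7.65 and 7.07 CPM with eHDAC6-Guide1 and 9.85, 4.58 and 8.73 CPM with eHDAC6-Guide2, against 18.6, 14.9 and 17.9 CPM with GATA1TSS-Guide1. Its log2 difference was -1.14 (SE 0.15, edgeR adjusted p = 1.61e-04), and the groups did not overlap. Its neighbour on chromosome 17, the noncoding LINC01028, fell by 1.35 on the log2 scale (edgeR adjusted p = 0.0125), at 1.74 ± 0.939 CPM with eHDAC6 and 4.10 ± 0.949 CPM with GATA1TSS-Guide1. LINC01028 lost its call without GATA1TSS-Guide1 replicate 3 (edgeR adjusted p = 0.0528) and stood at -0.75 without the sgRNA eHDAC6-Guide1 (edgeR adjusted p = 0.352). Both genes were scattered in the NC libraries, KCNJ16 from 7.34 to 51.5 CPM.

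MT2A, a metallothionein that binds zinc and copper, had 9.88, 11.5 and 11.7 CPM with eHDAC6-Guide1 and 8.94, 8.90 and 8.96 CPM with eHDAC6-Guide2, against 14.7, 19.5 and 23.7 CPM with GATA1TSS-Guide1 (-0.96, SE 0.12, edgeR adjusted p = 1.61e-04). It was the 1 of 4 tested genes of the metallothionein and zinc list that was called, where 0.77% of all genes tested were. MT1X, another metallothionein, had 4.09 ± 1.41 CPM with eHDAC6 and 6.69 ± 2.47 CPM with GATA1TSS-Guide1 (-0.73, edgeR adjusted p = 0.156). GPC6, a cell-surface glypican, had 16.4, 11.9 and 13.5 CPM with eHDAC6-Guide1 and 16.4, 13.5 and 16.6 CPM with eHDAC6-Guide2, against 32.5, 18.4 and 25.7 CPM with GATA1TSS-Guide1 (-0.79, SE 0.13, edgeR adjusted p = 0.00572). The NC libraries spanned 6.01 to 41.6 CPM for MT2A and 11.7 to 56.3 CPM for GPC6, so the levels of both groups lay inside the NC range. KCNJ16 and MT2A were called in 19 of 20 alternatives and GPC6 in 18.

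GP6, the collagen receptor of platelets, was the 1 of 9 tested megakaryocyte and platelet genes that was called, where 0.77% of all genes tested were. It had 23.4 ± 2.51 CPM with eHDAC6 and 31.9 ± 5.09 CPM with GATA1TSS-Guide1 (-0.44, edgeR adjusted p = 0.0318). Both stood above the NC median of 17.1 CPM. GP6 lost its call without GATA1TSS-Guide1 replicate 2 or 3, eHDAC6-Guide1 replicate 3 or eHDAC6-Guide2 replicate 1 (edgeR adjusted p = 0.163, 0.0911, 0.102 and 0.0979). Without overlap between the groups, LOC339862, a noncoding gene, fell by 0.65 on the log2 scale and PLCD3, a phospholipase C, fell by 0.40. Between these lay the falls of MAML2, a coactivator of Notch, SBF2, a myotubularin-related protein, SP6, a zinc-finger factor, UBE3D and the noncoding LINC00534 and LINC01169. TNXB, an extracellular matrix tenascin, and its partial copy TNXA had nearly the same counts and fell together (-0.42 and -0.43), so they count as 1 observation. LOC339862 stood at -0.43 without the sgRNA eHDAC6-Guide1 and SP6 at -0.27 without GATA1TSS-Guide1 replicate 2, both not called (edgeR adjusted p = 0.508 and 0.215). Of 20 alternatives, PLCD3 was called in 7, UBE3D in 8, LOC339862 in 9, SP6 in 10 and MAML2 in 13. LINC01169 was called in 15, and SBF2 and LINC00534 in 17 each. Without GATA1TSS-Guide1 replicate 3, 31 of the 41 named calls of this comparison were lost.

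**Figure D4:**
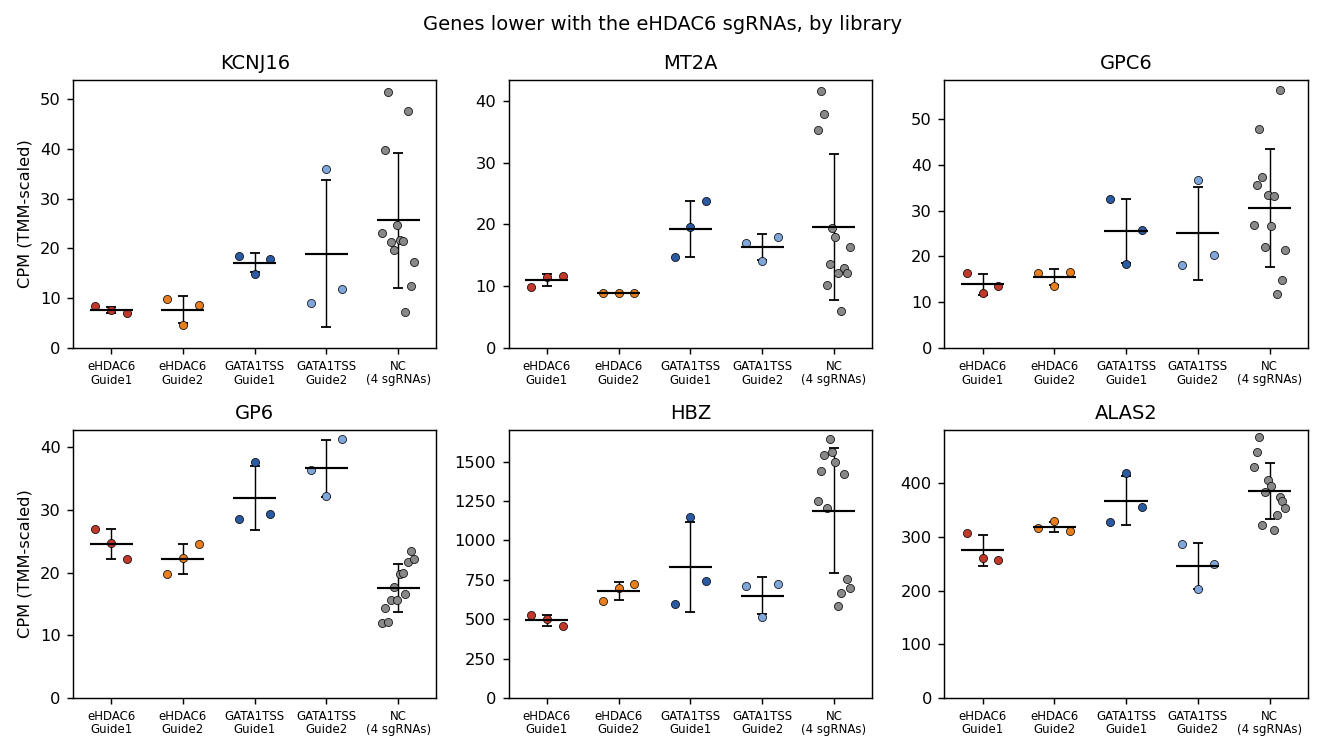
The points are CPM (TMM-scaled) of KCNJ16, MT2A, GPC6, GP6, HBZ and ALAS2 in each library by sgRNA, with the mean as a bar and the SD as whiskers. KCNJ16, MT2A, GPC6 and GP6 show no overlap between the eHDAC6 and GATA1TSS-Guide1 libraries, whereas HBZ and ALAS2 do, and the NC libraries scatter widely.

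The globin, heme synthesis and red cell membrane lists held 1 called gene each, where 0.77% of all genes tested were called. In lists this short, 1 gene is a larger share than that. Of 10 tested globin and globin-chaperone genes 1 fell, and the median was -0.26, with 1 positive. The called gene was HBZ, the embryonic alpha-like globin, at 525, 502 and 455 CPM with eHDAC6-Guide1 and 617, 696 and 723 CPM with eHDAC6-Guide2, against 599, 1149 and 740 CPM with GATA1TSS-Guide1. The groups overlapped, and the value rests on the high GATA1TSS-Guide1 replicate 2: the difference was -0.52 (edgeR adjusted p = 0.0333) with it and -0.21 (edgeR adjusted p = 0.198) without it. HBZ was also lost on leaving out any of GATA1TSS-Guide1 replicate 3, eHDAC6-Guide1 replicates 1 and 3 and eHDAC6-Guide2 replicates 1 and 3, with edgeR adjusted p = 0.0637 to 0.123. Without the sgRNA eHDAC6-Guide1 it was -0.29 (edgeR adjusted p = 0.624). The globin list also differed between the eHDAC6 sgRNAs, with a median of -0.40 for eHDAC6-Guide1 minus eHDAC6-Guide2. HBE1 had 1855, 1776 and 1728 CPM with eHDAC6-Guide1 and 2384, 2590 and 2369 CPM with eHDAC6-Guide2. With GATA1TSS-Guide1 it had 2173, 2902 and 2428 CPM. The list's median against GATA1TSS-Guide1 therefore does not describe both eHDAC6 sgRNAs alike.

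Where 0.333% of all genes tested fell, 1 of 14 tested heme synthesis genes did (median -0.07). This was ALAS2, the first enzyme of the pathway in red cells, at 307, 261 and 256 CPM with eHDAC6-Guide1 and 316, 329 and 311 CPM with eHDAC6-Guide2, against 328, 418 and 356 CPM with GATA1TSS-Guide1 (-0.31, edgeR adjusted p = 0.0292). It was lost without GATA1TSS-Guide1 replicate 2 (-0.21, edgeR adjusted p = 0.135) and without 4 other libraries (edgeR adjusted p = 0.079 to 0.126), and was -0.20 without the sgRNA eHDAC6-Guide1 (edgeR adjusted p = 0.473). Of 25 tested genes of the red cell membrane and blood groups 1 fell (median -0.06), which was SLC4A1, described below. PKLR, the red cell pyruvate kinase, fell by 0.29 on the log2 scale (edgeR adjusted p = 0.0133) and its exons overlap HCN3 on the other strand. The call rests on 1 sgRNA: the difference was -0.05 without eHDAC6-Guide1 (edgeR adjusted p = 0.906). It was also lost without eHDAC6-Guide1 replicate 3 or GATA1TSS-Guide1 replicate 3 (edgeR adjusted p = 0.0655 and 0.0811). The 13 tested amino acid transporters held 1 fall, that of SLC7A11 (median -0.08), also described below.

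The remaining lists held no called gene in this comparison. Among the cytosolic ribosomal protein genes all 35 tested were positive, with a median of 0.12 and a range of 0.06 to 0.22, and none passed. Of all 12595 genes tested, 6239 were positive. None of the 19 tested glycolysis genes (median -0.07) and none of the 16 tested genes of G2 and M phase (median -0.11) had a positive difference, and 1 of the 16 S phase genes did (median -0.13). The medians were 0.11 for 10 interferon response genes, 0.15 for 5 lymphocyte markers, 0.04 for 8 progenitor regulators, 0.01 for 21 genes of the integrated stress response, 0.01 for 17 cytosolic aminoacyl-tRNA synthetases, 0.01 for 11 autophagy genes and 0.00 for 13 p53 targets. They were -0.00 for 16 iron handling genes, -0.02 for 17 cholesterol synthesis genes, -0.02 for 14 KRAB corepressor and deacetylase genes, -0.04 for 15 immediate early genes, -0.06 for 12 heat shock and chaperone genes and -0.10 for 7 fibroblast and epithelial markers. The erythroid regulators had a median of 0.01, the megakaryocyte and platelet genes one of -0.01 and the metallothioneins one of -0.51.

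The libraries of the 2 eHDAC6 sgRNAs had near-equal GATA1 and HDAC6 levels but differed in other genes. Against GATA1TSS-Guide1, whose libraries both comparisons share, eHDAC6-Guide1 alone gave 118 calls (0.937%) and eHDAC6-Guide2 alone 20 (0.159%). Tested against each other in the same fit, eHDAC6-Guide1 minus eHDAC6-Guide2, 44 genes differed (0.349%), 28 of them higher (0.222%) and 16 lower (0.127%) with eHDAC6-Guide1. This number was 14 without eHDAC6-Guide1 replicate 3, 24 without its replicate 2, 16 and 17 without eHDAC6-Guide2 replicates 1 and 3, 72 without GATA1TSS-Guide1 replicate 2, and 2 in the fit of 24 libraries. Those 2 were SLC4A1 and AQP1.

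SLC4A1, the anion exchanger known as band 3 of the red cell membrane, had 40.8, 27.2 and 29.5 CPM with eHDAC6-Guide1, against 80.7, 86.3 and 81.7 CPM with eHDAC6-Guide2. The GATA1TSS-Guide1 libraries had 84.7, 82.3 and 79.9 CPM, level with eHDAC6-Guide2. The difference between the eHDAC6 sgRNAs was -1.34 (SE 0.10, edgeR adjusted p = 7.55e-08) and held in all 16 alternatives. Its call against GATA1TSS-Guide1 (-0.66, edgeR adjusted p = 1.23e-04) thus came from 1 sgRNA, and was 0.01 without eHDAC6-Guide1 (edgeR adjusted p = 0.984). AQP1, the water channel of red cells, had 47.9, 41.9 and 44.4 CPM with eHDAC6-Guide1 and 73.2, 71.7 and 71.2 CPM with eHDAC6-Guide2 (-0.68, SE 0.08, edgeR adjusted p = 4.09e-05), with GATA1TSS-Guide1 between them at 54.6, 61.7 and 57.6 CPM.

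Other erythroid genes were lower with eHDAC6-Guide1 too. Of 10 tested genes of the globin list 3 were, HBE1, HBG1 and HBG2, and of 25 of the membrane list 3. None was called higher in either list, and 0.127% of all genes tested were lower. HBE1, embryonic epsilon globin, averaged 1787 ± 64.3 CPM with eHDAC6-Guide1 and 2448 ± 124 CPM with eHDAC6-Guide2 (-0.45, edgeR adjusted p = 0.00791). CA1, carbonic anhydrase 1, averaged 43.5 ± 6.59 CPM with eHDAC6-Guide1 and 67.2 ± 3.64 CPM with eHDAC6-Guide2 (-0.62, edgeR adjusted p = 0.00615). PKLR averaged 135 ± 10.2 CPM with eHDAC6-Guide1 and 189 ± 8.53 CPM with eHDAC6-Guide2 (-0.49, edgeR adjusted p = 4.77e-04). HBE1 lost its call without eHDAC6-Guide1 replicate 3 (edgeR adjusted p = 0.114) and CA1 without eHDAC6-Guide2 replicate 1 (edgeR adjusted p = 0.0643).

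Genes of amino acid supply went the other way. With eHDAC6-Guide1, 9 of 21 tested genes of the integrated stress response were higher (median 0.45, against 0.00 over all genes). So were 6 of 13 amino acid transporters (median 0.29) and 6 of 17 cytosolic aminoacyl-tRNA synthetases (median 0.21). None of these lists held a gene called lower, and 0.222% of all genes tested were called higher. The integrated stress response is the programme that ATF4 turns on when amino acids are short or protein folding is strained. ASNS, asparagine synthetase, had 247, 242 and 276 CPM with eHDAC6-Guide1 and 166, 160 and 150 CPM with eHDAC6-Guide2 (0.68, SE 0.07, edgeR adjusted p = 9.58e-06), against 202, 178 and 183 CPM with GATA1TSS-Guide1. PSAT1, an enzyme of serine synthesis, averaged 94.5 ± 7.32 CPM with eHDAC6-Guide1 and 60.5 ± 4.52 CPM with eHDAC6-Guide2 (0.64, edgeR adjusted p = 6.61e-04). SLC7A5, a carrier of large neutral amino acids, differed by 0.57, the synthetase genes CARS and WARS by 0.50 and 0.56, and DDIT4, an inhibitor of mTORC1 signalling, by 0.67. These levels vary widely in the NC libraries, where ASNS ran from 254 to 1131 CPM in separate sets. It was at 254 to 299 CPM in replicates 2 and 3 of NC-Guide3 and NC-Guide4, and at 846 to 1131 CPM in the other NC libraries.

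SLC7A11, the cystine and glutamate exchanger, had 53.7, 53.2 and 58.3 CPM with eHDAC6-Guide1 and 37.5, 33.3 and 32.7 CPM with eHDAC6-Guide2 (0.67, edgeR adjusted p = 3.35e-04), with GATA1TSS-Guide1 at 55.6, 48.8 and 58.3 CPM. Its fall against GATA1TSS-Guide1 (-0.31, edgeR adjusted p = 0.042) came from eHDAC6-Guide2 and was 0.02 without that sgRNA (edgeR adjusted p = 0.95). That fall was also lost without any 1 of 7 libraries (edgeR adjusted p = 0.0525 to 0.345). SLC7A11-AS1, its antisense neighbour, shares exon sequence with it and moved alike (0.61). For ASNS, PSAT1, SLC7A5, CARS, WARS, DDIT4 and SLC7A11 the difference between the eHDAC6 sgRNAs was called in 15 of 16 alternatives, all but the fit of 24 libraries. Each sgRNA of eHDAC6 was its own set of cultures, and whether these differences belong to the guide or to the cultures was not tested.

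**Figure D5:**
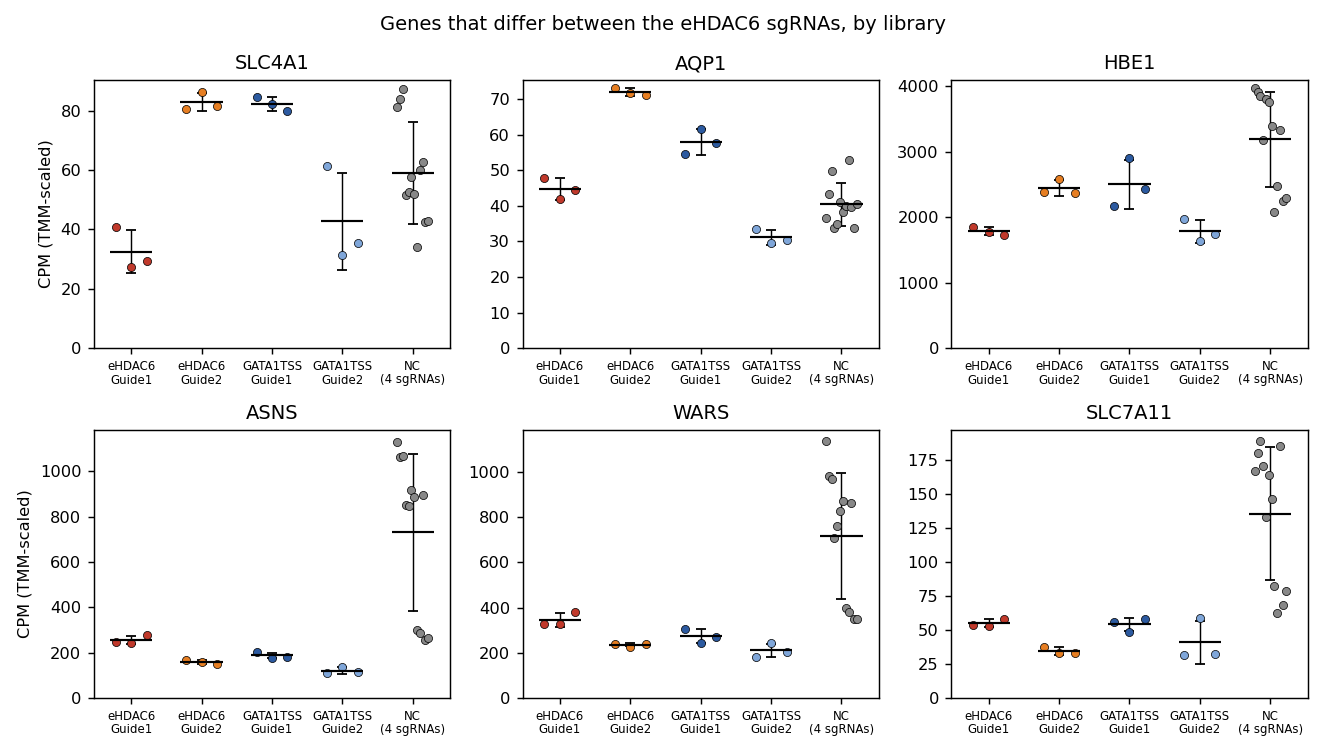
The points are CPM (TMM-scaled) of SLC4A1, AQP1, HBE1, ASNS, WARS and SLC7A11 in each library by sgRNA, with the mean as a bar and the SD as whiskers. SLC4A1, AQP1 and HBE1 are lower, and ASNS, WARS and SLC7A11 higher, with eHDAC6-Guide1 than with eHDAC6-Guide2, and the NC libraries reach 1131 CPM for ASNS.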

How the data were processed

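The authors deposited a table of raw, whole-number counts by gene symbol and library, together with gene models from RefSeq. In the submitters' processing notes stand the build hg19 and the tools SAMtools 0.1.19, Picard, Bowtie2 2.1.0 and TopHat2 2.0.8. How reads were counted, and whether pairs and strand were taken into account, is not given in the sources used here. Values of genes with overlapping exons (ZBTB1, LOC102723809, ZBTB25, LST1, LMNTD2, CORO1A, P2RX5, PKLR, MAML2, SBF2, TNXA, TNXB, SLC7A11 and SLC7A11-AS1) and of close copies (SSX3, GAGE, globin and ribosomal protein genes) are therefore uncertain. Of the 21925 entries, 3129 had no count in the 9 libraries, and 21 were dates, not symbols (0.198% of the counts, 1 of them called); they were fitted but are not named. TFRC was not analysed here.

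Genes were kept with edgeR's filter by sgRNA (minimum count 10, total 15, proportion 0.7). The test was the quasi-likelihood one of edgeR 4.0.16 under R 4.3.3, with TMM scaling, on the 9 libraries with 1 coefficient per sgRNA, contrasting the mean of the eHDAC6 sgRNAs with GATA1TSS-Guide1, each eHDAC6 sgRNA with it, and the eHDAC6 sgRNAs with each other. The common biological coefficient of variation was 0.0725. The p-values rest on how replicates with the same sgRNA scatter and hold no variation between guides. SEs come from the F statistic. The scripts were tested on simulated counts. Principal components used log2 CPM (prior count 2) of 2000 genes. Total counts, with a median of 13255781 in the 9 libraries, limit the precision of low values. Gene positions on hg19 come from the deposited gene models, and promoters from RefSeq on GRCh38.p14; the 2 builds were not mixed.

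Named genes were GATA1, HDAC6, called genes within 1 Mb of GATA1, the 15 largest rises and 15 largest falls with a mean of at least 5 CPM and no overlap between the groups, called members of the lists, the 8 smallest p in each direction between the eHDAC6 sgRNAs, and tested neighbours; some of these are not reported here. The comparison, the lists and this rule were chosen with earlier results of these data known. Alternatives were other scaling (RLE), filters, a replicate block, all 24 libraries, DESeq2 1.42.0, 1 coefficient per element, counts summed per sgRNA, each library or eHDAC6 sgRNA left out and thinning to 1 depth.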

Additional observations from a re-analysis of the deposited data

Results flagged for a closer look

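2 values lay far from the other eHDAC6 libraries, as chance gives in about 1 in 20 groups looked at. LOC102723809 stood at 11.8 CPM in eHDAC6-Guide2 replicate 2, below the 14.9 to 15.6 CPM of the other 5 libraries. UBTF, which encodes a factor for ribosomal RNA transcription and lies near SLC4A1, stood at 181 CPM in eHDAC6-Guide2 replicate 3, above the 163 to 168 CPM of the others.

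The following named genes differed between the eHDAC6 sgRNAs (edgeR, log2 difference eHDAC6-Guide1 minus eHDAC6-Guide2). Lower with eHDAC6-Guide1 were SLC4A1 (-1.34), P2RX5 (-0.77), ESPN, an actin-bundling protein (-0.75), AQP1 (-0.68), CA1 (-0.62), PKLR (-0.49), HBE1 (-0.45) and RNASE1, a secreted ribonuclease (-0.42). Higher with eHDAC6-Guide1 were CARS (0.50), WARS (0.56), SLC7A5 (0.57), SLC7A11-AS1 (0.61), PSAT1 (0.64), DDIT4 (0.67), SLC7A11 (0.67) and ASNS (0.68). ESPN lost its call without any of eHDAC6-Guide1 replicates 2 and 3 and eHDAC6-Guide2 replicates 1 and 3 (edgeR adjusted p = 0.0698 to 0.164). P2RX5 lost it without any of 5 eHDAC6 libraries (edgeR adjusted p = 0.0646 to 0.224), and RNASE1 without eHDAC6-Guide1 replicate 2 (edgeR adjusted p = 0.0654).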

How the results depend on the processing

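For eHDAC6 minus GATA1TSS-Guide1, GATA1, HDAC6, ZBTB1 and LOC102723809 kept their direction and call in all 20 alternatives, and 78 of the 97 called genes kept theirs in at least 10. The 97 calls became 383 with no filter on low counts, 171 with DESeq2, 188 with counts summed per sgRNA, 52 with 1 coefficient per element, 15 without the sgRNA eHDAC6-Guide1 and 4 in the fit of 24 libraries, and ran from 14 to 208 with 1 library left out. Without GATA1TSS-Guide1 replicate 2 the split was 53 rises and 96 falls, in place of 55 and 42. SLC4A1 turned from -0.66 to 0.0114 without the sgRNA eHDAC6-Guide1, and SLC7A11 from -0.31 to 0.0194 without eHDAC6-Guide2. The 118 calls of eHDAC6-Guide1 alone became 422 with no filter, 224 with DESeq2 and 7 with 24 libraries (24 to 260 with 1 library left out). The 20 of eHDAC6-Guide2 became 178, 60 and 6 (10 to 79). The 44 between the eHDAC6 sgRNAs became 111 with no filter and 2 with 24 libraries (14 to 72). With a replicate block the counts were 336, 394, 129 and 81 in the same order, and the block was not adopted, since pairing by number was partial. Over 9 same-numbered pairs the deviations correlated at -0.19 to 0.29: all 6 pairs of replicates 1 and 2 were over 0.1 (0.12 to 0.29) and the 3 pairs of replicate 3 were not. The 18 other pairs lay between -0.31 and 0.23, and not every library correlated best with its own number. At unadjusted p under 0.05, 1588, 1714, 1165 and 931 genes passed. The cause of these shifts was not tested.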
